A study of Mus musculus with 22 samples.

Results

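Haematopoietic stem cells (HSCs) of Cd53 knockout (KO) mice were compared with those of wild-type (WT) littermates in bone marrow after saline, the unstressed arm of a study that also gave granulocyte colony-stimulating factor (G-CSF). The comparison holds 7 of the 22 libraries of the series, taken by their labels: 3 KO and 4 WT libraries of saline-treated marrow. The remaining libraries come from mice given G-CSF for 7 days, as 4 KO and 3 WT libraries of marrow and 4 KO and 4 WT libraries of spleen, and entered the fit, where they add to the estimate of the spread, and a few comparisons with the KO effect under G-CSF. HSCs were sorted as Kit+, lineage-negative, Sca-1+ (KSL) cells without CD48 and with CD150, RNA was taken from the sorted cells, and libraries were made with a SMARTer ultra-low-input kit. The labels do not say which part of Cd53 was deleted, the age of the mice, or whether a library pooled animals, so p-values measure the spread between libraries only.

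CD53 is a tetraspanin, a small membrane protein with 4 membrane-spanning segments that groups receptors, integrins and signalling proteins into membrane patches, and it is found on leukocytes. Most HSCs of an unstressed adult mouse are quiescent. In quiescent cells the DREAM complex, built from the pocket proteins p107 and p130, E2F4 with its DP partner and the MuvB core, sits on promoters of cell cycle genes and represses them, and the study's title places CD53 in DREAM-mediated quiescence of stressed HSCs.

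Levels are log2 CPM (read counts scaled to the library size), and a log2 fold change is the KO mean minus the WT mean with its standard error (SE) from limma. The threshold was a limma p of 0.05 after Benjamini-Hochberg adjustment over 13571 genes. The saline libraries held 25470327 to 30949116 reads in the listed genes. Their levels correlated at 0.950 to 0.976 across genes, with a median of 0.962 within groups and 0.963 between groups. The main component of their variation, with 24.6% of the variance, set KO replicate 1 apart, and the next, with 21.5%, set WT replicate 3 apart. For some lists and genes that moved with either library, the value without it is given beside it. A value given alone may also move when either library is left out. Summed neutrophil markers reached 115.5 CPM in WT replicate 3, against 3.81 to 6.44 CPM in the other WT libraries and 4.01 to 5.78 CPM in KO. The summed markers of 9 other cell types overlapped between KO and WT. The 4 measured Y-linked genes lay between 4.38 and 7.68 log2 CPM in all 22 libraries.

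Cd53 itself was lower in every KO library. The gene (ENSMUSG00000040747, chromosome 3, 106758861 to 106790149, RefSeq on GRCm38.p6, which is the mm10 build) lay at 3.61, 3.58 and 2.02 log2 CPM in KO replicates 1 to 3 and at 5.90, 5.84, 6.17 and 5.75 in WT replicates 1 to 4. These levels rest on 320, 319 and 107 reads in KO and on 1751, 1838, 2362 and 1668 reads in WT. The groups did not overlap, and KO replicate 3 lay well below the other KO libraries. Against a WT mean of 60.8 ± 8.03 CPM (SD, n = 4), KO replicates 1 and 2 kept 20.1% and 19.7% of the WT signal and replicate 3 kept 6.66%. The log2 fold change was -2.84 ± 0.24 (95% interval -3.33 to -2.35), which is 7.18-fold lower in KO, with limma adjusted p = 3.44e-07. With the spread taken from the 7 saline libraries alone, Cd53 passed with adjusted p = 0.0272, and over the other alternatives it lay between 4.05e-10 and 3.58e-05. A two-sided exact permutation test gave p = 0.0571, the smallest that 3 libraries against 4 allow.

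The signal left in KO was measured with G-CSF as well. KO marrow libraries then held 7.83 to 11.3% of the WT mean and KO spleen libraries 9.11 to 10.6% of theirs. WT Cd53 had means of 854.1 CPM in marrow and 793.5 CPM in spleen in those groups, and KO libraries of G-CSF marrow held 1673 to 2349 Cd53 reads. The difference between the saline and the G-CSF fold change in marrow had a limma adjusted p = 0.772. The labels do not name the deleted exons, so which part of the transcript the remaining reads cover was not analysed here.

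**Figure D1:**
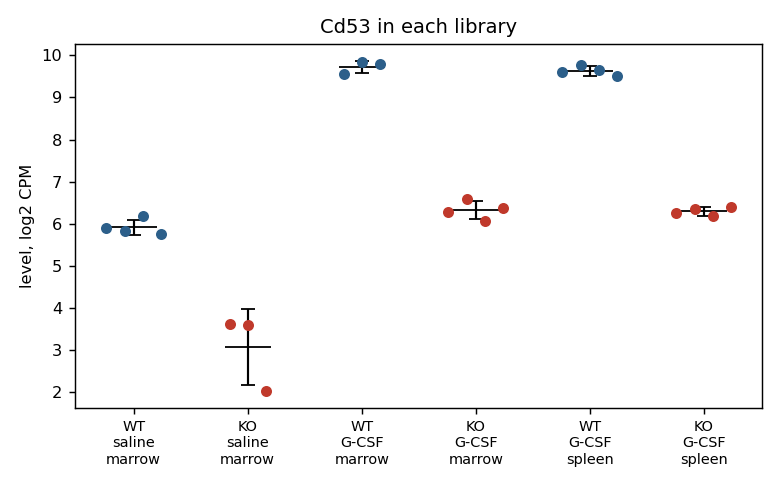
Cd53 level in log2 CPM (vertical axis) in each of the 22 libraries by group, with points for libraries, horizontal marks for group means and bars for SD. Every KO library lies below every WT library of its group pair, and the saline KO libraries span 2.02 to 3.61.

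Of the genes tested, Cd53 was the 1 gene past the threshold (0.00737% called, 0 higher and 1 lower). Without adjustment, 510 genes reached a limma p under 0.05 (3.76%), 235 higher in KO (1.73%) and 275 lower (2.03%). The authors' deposited table for this comparison also holds 1 gene with an adjusted p under 0.05, Cd53 at a log2 fold change of -2.72. In it 869 of 13594 genes had p under 0.05, more than the 510 here. The authors' fit thus differs from the one used here, and its model is not given in the sources used. For most genes the data bound the difference. The 95% interval lay within -1 and 1 for 77.7% of the genes tested and for 96.9% of the 9599 genes that reached a mean of 3 log2 CPM in the higher group. Among those 9599 genes, 20 had a fitted fold past 2, of which 6 were higher and 14 lower in KO, and for 6 of the 20 the groups did not overlap.

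**Figure D2:**
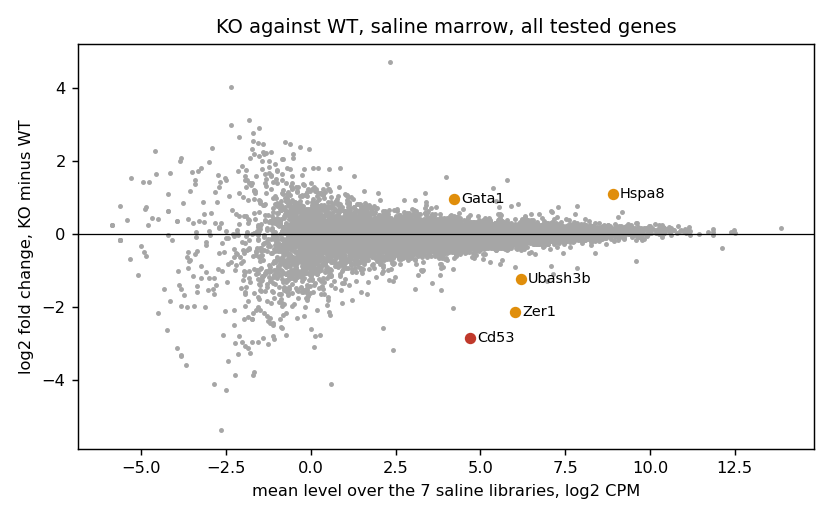
Log2 fold change of KO against WT (vertical axis) over the mean level of the 7 saline libraries in log2 CPM (horizontal axis) for the 13571 genes tested in grey. Cd53 is in red at -2.84, and Ubash3b, Zer1, Hspa8 and Gata1, which did not pass, are in orange.

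None of the tested neighbours of Cd53 on chromosome 3 passed. Within 5 megabases on either side, 84 genes were tested, 0 passed, and their median log2 fold change was 0.03. By unadjusted p under 0.05, 2 were higher and 0 lower, beside 1.73% and 2.03% of all genes tested. KO and WT did not overlap for 6 genes with KO higher and for 0 with KO lower, beside 2.42% and 2.53% of all genes tested (4.95% in both directions).

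No other tetraspanin passed the threshold. Of 20 measured members besides Cd53, 0 passed and the median log2 fold change was 0.08, beside -0.001 for all genes tested, and -0.001 without KO replicate 3. Cd81, a widely expressed tetraspanin, had a log2 fold change of -0.02 ± 0.13, with KO at 9.74 to 9.95 log2 CPM and WT at 9.74 to 10.31. Cd9, a tetraspanin of platelets and progenitors, had one of 0.16 ± 0.13, and Tspan9 one of -0.23 ± 0.19. Tspan32, an antigen-presenting and blood cell tetraspanin, lay at 9.53, 9.04 and 9.37 in KO and 9.50, 9.27, 9.21 and 8.68 in WT (0.14 ± 0.19, and 0.04 without KO replicate 1). Among 9 measured receptors and kinases known to bind or signal with CD53, 0 passed. The phosphatase Ptprc (CD45) was at 0.07 ± 0.11, the integrin chains Itga4 and Itgb1 at -0.08 ± 0.12 and 0.19 ± 0.10, and the kinase Prkcb at -0.41 ± 0.22.

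The genes of the sort gate were present in both genotypes. Kit, the stem cell factor receptor, lay at 10.41, 10.69 and 10.06 log2 CPM in KO and at 10.45, 10.51, 10.43 and 10.15 in WT. Ly6a, which encodes Sca-1, lay at 7.52, 7.33 and 7.83 in KO and at 7.50, 7.10, 7.23 and 7.16 in WT. Slamf1, which encodes CD150, lay at 6.23, 5.61 and 5.67 in KO and at 5.72, 5.41, 5.60 and 4.89 in WT. The groups overlapped for all of them. Cd48, selected against, was covered by 82 to 178 reads in KO and 82 to 201 in WT. Ly6a and Slamf1 had log2 fold changes of 0.32 ± 0.12 and 0.43 ± 0.18, with unadjusted limma p under 0.05, and neither passed. Ly6a was at 0.18 without KO replicate 3, and Slamf1 at 0.23 without KO replicate 1 and 0.26 without WT replicate 4. Since cells were gated on these proteins, a change in the gated population and one within its cells cannot be told apart.

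No stem cell gene of the lists passed the threshold. Of 42 measured HSC identity genes 0 passed, 21 had a positive sign, and the median log2 fold change was 0.01. Of 30 transcription factors of HSCs 0 passed and 9 had a positive sign, with a median of -0.05. The homeobox factor Meis1 was at -0.08 ± 0.10 and the leucine zipper factor Hlf at -0.15 ± 0.16, each with overlapping groups. Hoxa9, a homeobox factor of stem and progenitor cells, lay at 6.23, 5.96 and 6.07 log2 CPM in KO and 6.26, 6.49, 6.53 and 6.50 in WT. KO was thus below WT in every library, by 0.03 at the closest pair, at a log2 fold change of -0.36 ± 0.15, and did not pass.

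By unadjusted p under 0.05, 4 of the HSC identity genes were higher in KO and 0 lower, beside 1.73% and 2.03% of all genes tested. Vwf, which marks platelet-primed HSCs, lay at 6.97, 6.55 and 6.27 log2 CPM in KO and at 6.29, 6.33, 5.76 and 6.09 in WT. The groups overlapped narrowly, at a log2 fold change of 0.48 ± 0.17, and 0.29 without KO replicate 1. The interferon-inducible membrane proteins Ifitm1 (0.29 ± 0.09) and Ifitm3 (0.25 ± 0.10) and the catenin-like Ctnnal1 (0.30 ± 0.12) are the others. In marrow after G-CSF Vwf was at 0.56 ± 0.17 and in spleen at 0.47 ± 0.15, and it passed in neither (limma adjusted p = 0.179 and 0.258). Those libraries entered the saline p-values only through the shared estimate of the spread. The list as a whole did not lean to KO there. By unadjusted p under 0.05, 4 of 42 were higher and 7 lower in marrow, beside 7.21% and 5.59% of all genes, and 5 were higher and 7 lower in spleen, beside 6.15% and 5.62%. In marrow 1 member passed, the cytokine signalling inhibitor Socs2 (0.91, limma adjusted p = 0.0281), and Ifitm1 was at -0.29 ± 0.09 in spleen. Of 18 multipotent progenitor genes 0 passed and 12 had a positive sign, with a median of 0.07. In KO 1 was higher and 1 lower by unadjusted p under 0.05, beside 1.73% and 2.03% of all genes tested. The groups did not overlap for 1 higher and 1 lower, beside 2.42% and 2.53% of all genes. The higher was Cd69, at 0.97. The lower was Satb1, a chromatin organiser of lymphoid progenitors, at 3.05 to 3.23 in KO and 3.38 to 3.95 in WT (-0.56 ± 0.21).

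The subunits of DREAM and MuvB were read next. All 14 were tested, 0 passed, and the median log2 fold change was -0.08, which became 0.01 without KO replicate 1. Rbl2, which encodes p130, was at -0.11 ± 0.19, and Rbl1, which encodes p107, at -0.07 ± 0.14. Lin54, the MuvB subunit that contacts DNA, lay at 3.49 to 3.83 log2 CPM in KO and at 3.95 to 4.15 in WT (-0.35 ± 0.18). Of 10 cyclin-dependent kinase inhibitors and D cyclins 0 passed, with Cdkn1c (p57), an inhibitor tied to HSC quiescence, at 0.22 ± 0.22, Cdkn1a (p21) at -0.50 ± 0.33 (-0.003 without KO replicate 1) and the kinase Cdk6 at 0.18 ± 0.17.

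Genes of the G2 and M phases, which MuvB complexes repress in quiescence and activate in mitosis, had a small negative median after saline that rested on KO replicate 1. Of 78 members 0 passed, 11 had a positive sign, and the median log2 fold change was -0.16. Averaged over the 78 genes, the level was 4.83, 5.30 and 5.38 log2 CPM in KO replicates 1 to 3 and 5.43, 5.25, 5.30 and 5.39 in WT replicates 1 to 4. KO replicate 1 alone lay below the WT range, and without it the median was -0.004. Without any other library it lay between -0.23 and -0.11. Top2a, the topoisomerase of mitotic chromosomes, shows it in 1 gene: KO replicate 1 was at 8.22 log2 CPM, the other KO libraries at 8.64 and 8.71, and WT at 8.56 to 8.79.

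The binding letters of MuvB, the cell cycle homology region (CHR; TTTGAA or TTCGAA, read on both strands), occurred in 74.6% of the 67 G2/M promoters with a RefSeq sequence, against 19.4% of 27025 promoters of the same window and 18.2% of 44 promoters of G1/S genes. A match is a description of the letters and not of binding. The window runs from 250 bases before the annotated start to 50 after, on build GRCm38.p6. It is shown for 2 members of small p, Aspm (plus strand, chr1:139454523-139454822), a spindle pole protein, and Fam83d (plus strand, chr2:158767849-158768148), a spindle-associated protein, with the CHR in capitals, read on the reverse strand in Fam83d.
Aspm: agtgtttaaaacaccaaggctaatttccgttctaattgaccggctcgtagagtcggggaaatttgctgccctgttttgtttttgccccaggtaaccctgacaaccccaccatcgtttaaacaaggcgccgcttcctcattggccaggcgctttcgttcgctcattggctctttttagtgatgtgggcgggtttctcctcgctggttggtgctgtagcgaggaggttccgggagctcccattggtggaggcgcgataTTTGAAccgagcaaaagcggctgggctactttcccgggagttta
Fam83d: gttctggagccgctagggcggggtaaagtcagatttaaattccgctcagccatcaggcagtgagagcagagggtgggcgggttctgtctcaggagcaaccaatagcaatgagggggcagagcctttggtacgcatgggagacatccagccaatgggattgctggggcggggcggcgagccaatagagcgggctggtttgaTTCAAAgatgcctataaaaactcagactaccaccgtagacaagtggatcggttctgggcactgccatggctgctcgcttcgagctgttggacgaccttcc
Aspm lay at 3.72, 3.98 and 4.44 log2 CPM in KO and at 4.33 to 4.68 in WT (-0.43 ± 0.22). Fam83d was sparse, with 4, 29 and 46 reads in KO and 44 to 98 in WT. The kinesin Kif14 lay at 2.40, 3.32 and 3.03 in KO and 3.09 to 3.99 in WT (-0.62 ± 0.23), and the cytokinesis kinase Cit at 6.17, 6.80 and 6.32 in KO and 6.56 to 6.90 in WT (-0.27 ± 0.15). All had overlapping groups. Without KO replicate 1, Aspm was at -0.27, Kif14 at -0.36 and Cit at -0.14.

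The KO effect on these genes was compared between saline and G-CSF marrow. Under G-CSF it was positive: the median was 0.59 in marrow, with 74 of 78 members positive, and 0.56 in spleen, with 77 of 78. By unadjusted p under 0.05, 54 were higher and 0 lower in marrow, beside 7.21% and 5.59% of all genes. In marrow 3 passed, beside 0.147% of all genes: Cit (0.88), Cenpe (1.03) and Cdca2 (0.71), each higher in KO. In spleen 56 were higher and 1 lower by unadjusted p under 0.05, beside 6.15% and 5.62% of all genes. There 0 passed, beside 0.0147% of all genes. Most of the difference from saline, where the median was -0.16, thus lay in the G-CSF libraries. The median difference, saline minus G-CSF, was -0.71 over the 78 genes. By unadjusted p under 0.05 it was negative for 50 of 78 and positive for 0, beside 4.66% and 2.49% of all genes tested, and 0 passed after adjustment. With spleen in place of marrow the median difference was -0.68, and 0 passed. There 50 were negative and 0 positive by unadjusted p under 0.05, beside 5.05% and 5.38% of all genes (10.4% in both directions). Both differences use the same saline libraries, KO replicate 1 among them, so the spleen result is not independent of the marrow result. Neither is given here without that library. In the comparison with G-CSF marrow, the lowest p were those of Cit, at -1.15 ± 0.21 (limma adjusted p = 0.243), and Kif14, at -1.65 ± 0.32 (limma adjusted p = 0.243). The list was fixed with results of these data known, so its count is a description.

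The negative medians of G1/S and DNA repair genes moved with the same library, and that of the repair genes stayed negative without it. Of 56 G1/S genes 0 passed, with a median log2 fold change of -0.10 that became 0.03 without KO replicate 1. Mcm3, a subunit of the replicative helicase, was at 0.07 ± 0.13, and the polymerase subunit Pola2 at -0.31 ± 0.20. Of 34 repair genes, from recombination between homologous strands and from the Fanconi pathway for crosslinked DNA, 0 passed and 9 had a positive sign. Their median was -0.17, became -0.10 without KO replicate 1 and was -0.19 at the lowest, without WT replicate 2. The list mean was 4.43, 4.68 and 4.67 log2 CPM in KO and 4.85, 4.74, 4.73 and 4.70 in WT, so every KO library lay below every WT library, KO replicate 1 by the most. KO and WT did not overlap for 5 of the 34, each lower in KO, beside 2.53% of all genes. Fancg, a core complex subunit, lay at 6.51, 6.66 and 6.55 log2 CPM in KO and at 6.95, 6.98, 6.82 and 6.68 in WT (-0.28 ± 0.11). Fancb lay at 2.90 to 3.81 in KO and 3.91 to 4.02 in WT (-0.50 ± 0.22, and -0.22 without KO replicate 1), and Fancf at 0.82 to 1.66 and 1.82 to 2.04 (-0.69 ± 0.31). The helicase Brip1 overlapped (-0.40 ± 0.20, and -0.20 without KO replicate 1).

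**Figure D3:**
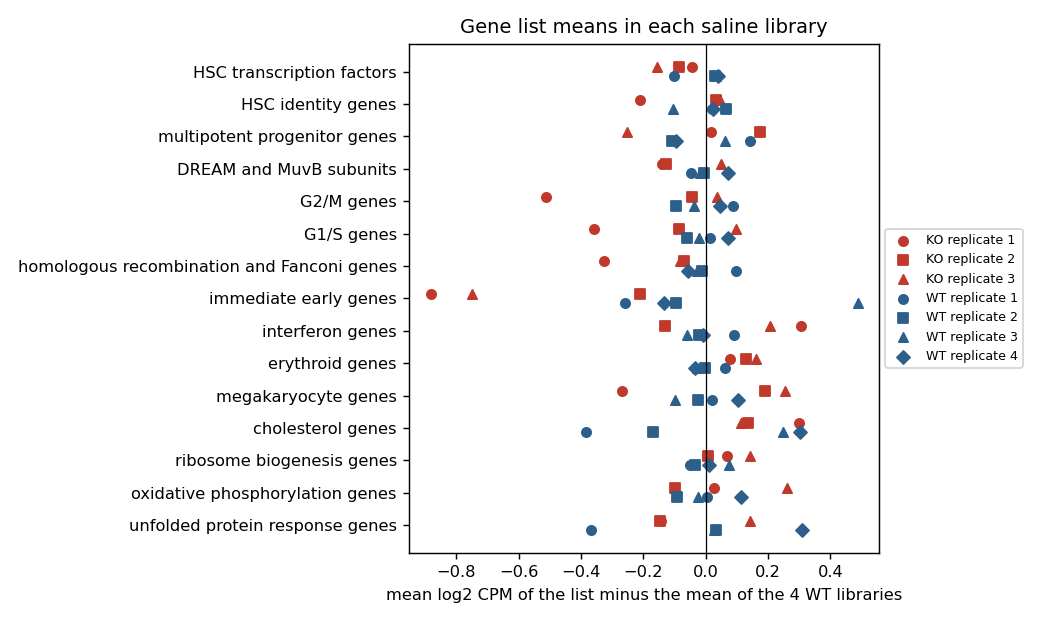
Mean level of each gene list in each saline library, in log2 CPM relative to the mean of the 4 WT libraries (horizontal axis), with KO in red and WT in blue and a symbol for each replicate number. KO replicate 1 stands apart for the G2/M genes, at 4.83 against 5.25 to 5.43 in WT, and WT replicate 3 for the immediate early genes, at 3.62 against 2.87 to 3.03 in the other WT libraries.

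Immediate early genes, transcribed within minutes of a stimulus or of cell handling, had the lowest median of the pathway lists, with 0 members past the threshold. Of 35 members 7 had a positive sign and the median log2 fold change was -0.41, running from -0.56 without KO replicate 2 to -0.25 without KO replicate 3. By unadjusted p under 0.05, 7 of 35 were lower and 0 higher, beside 2.03% and 1.73% of all genes tested, and the groups overlapped for every member. The list mean was 2.25, 2.92 and 2.38 log2 CPM in KO and 2.87, 3.03, 3.62 and 2.99 in WT. The highest was WT replicate 3, the library with the neutrophil markers, and without it the median was -0.27. The part of those cells in the difference was not tested.

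Fos and Fosb, subunits of the AP-1 factor, show how far single libraries set these values. Fos lay at 3.84, 4.57 and 0.68 log2 CPM in KO and at 6.32, 4.05, 6.27 and 3.62 in WT (-2.03 ± 0.80, and -0.86 without KO replicate 3). Fosb lay at -1.81, -0.38 and -1.08 in KO and at 0.60, -0.96, 2.29 and 0.68 in WT (-1.74 ± 0.76). Zfp36, which speeds decay of inflammatory mRNAs, lay at 6.56, 7.00 and 6.15 in KO and at 7.43, 7.43, 8.22 and 6.70 in WT (-0.88 ± 0.30), and Ier2 was at -0.93 ± 0.39. Each spread over more than a unit within WT. The TGACG letters of the cyclic AMP response element, read on both strands, occurred in 51.6% of 31 immediate early promoters, against 21.0% of all 27025. The same letters occurred in 37.3% of G2/M and 34.1% of G1/S promoters. They are in capitals in the windows of Fos (plus strand, chr12:85473640-85473939) and Fosb (minus strand, chr7:19309996-19310295).
Fos: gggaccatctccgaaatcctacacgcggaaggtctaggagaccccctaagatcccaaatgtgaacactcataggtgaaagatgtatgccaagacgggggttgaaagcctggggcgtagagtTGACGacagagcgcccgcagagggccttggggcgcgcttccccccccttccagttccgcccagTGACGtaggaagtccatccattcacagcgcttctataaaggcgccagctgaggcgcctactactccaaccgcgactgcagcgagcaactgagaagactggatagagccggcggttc
Fosb: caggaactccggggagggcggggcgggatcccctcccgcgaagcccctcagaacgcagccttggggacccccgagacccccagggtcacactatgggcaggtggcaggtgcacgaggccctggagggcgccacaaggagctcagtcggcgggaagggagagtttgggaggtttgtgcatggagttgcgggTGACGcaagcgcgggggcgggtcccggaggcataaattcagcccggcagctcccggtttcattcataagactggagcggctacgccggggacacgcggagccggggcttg

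Interferon-stimulated genes had mostly positive signs. Of 56 members 48 were positive, 0 passed, and the median log2 fold change was 0.12, beside 49.7% positive among all genes tested. The list mean was 6.51, 6.07 and 6.41 log2 CPM in KO and 6.30, 6.18, 6.15 and 6.20 in WT, so that KO replicate 2 lay below every WT library and the other KO libraries above. The median ran from 0.07 without KO replicate 1 to 0.20 without KO replicate 2. Lgals3bp, a secreted galectin ligand, lay at 9.27, 9.17 and 9.23 in KO and at 8.93 to 9.10 in WT (0.22 ± 0.08). The nuclease Isg20 did not overlap either, at 6.30 to 6.38 in KO and 5.83 to 6.21 in WT (0.29 ± 0.12), while the GTPases Ifi47 (0.36 ± 0.14) and Irgm1 (0.25 ± 0.10) did. In marrow after G-CSF 48 of 56 were positive as well, with a median of 0.14, and in spleen 32 of 56, with a median of 0.02.

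Growth and metabolic lists had small positive medians. Of 29 cholesterol synthesis genes 24 were positive and 0 passed, with a median log2 fold change of 0.18 that ran from 0.05 without WT replicate 1 to 0.27 without WT replicate 3. Msmo1, a sterol oxidase, lay at 6.54, 6.31 and 6.16 log2 CPM in KO and at 4.44, 5.19, 6.36 and 6.29 in WT, so WT replicates 1 and 2 carried the difference. Nsdhl, which acts after it, did not overlap, at 6.25 to 6.49 in KO and 5.84 to 6.20 in WT (0.34 ± 0.14). Another 1 of the 29 did not overlap with KO lower. Of the 29, 4 were higher and 0 lower by unadjusted p under 0.05, beside 1.73% and 2.03% of all genes tested. Of 45 ribosome biogenesis genes 36 were positive and 0 passed, with a median of 0.07, Nhp2 at 0.26 ± 0.11 and Nop58 at 0.19 ± 0.09. Among the 45, 3 were higher and 0 lower by unadjusted p under 0.05. The groups did not overlap for 4, each higher in KO, beside 2.42% of all genes, with Pes1 among them at 0.62. Of 75 genes of oxidative phosphorylation 63 were positive and 0 passed, with a median of 0.10 that became 0.004 without KO replicate 3, and Sdhb at 0.16 ± 0.09. The median was -0.03 for 36 genes of the unfolded protein response, -0.04 for 25 p53 targets, -0.01 for 20 NF-kB genes and 0.03 for 30 adhesion genes, with 0 past the threshold in each.

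No lineage gene of the lists passed. Of 21 erythroid genes 0 passed and 14 were positive, with a median log2 fold change of 0.06 (-0.002 without KO replicate 3). The list mean was 5.08 to 5.16 log2 CPM in KO and 4.96 to 5.06 in WT. Every KO library thus lay above every WT library, narrowly at the closest pair. KO and WT did not overlap for 2 of the 21, each higher in KO, beside 2.42% of all genes. Gata1 was among them, at 0.95. By unadjusted p under 0.05, 1 was higher and 0 lower. Rhag, an erythroid membrane protein, was at 0.45 ± 0.33 and the factor Klf1 at 0.78 ± 0.68. Of 26 megakaryocyte genes 20 were positive and 0 passed, with a median of 0.12 that ran from 0.07 without KO replicate 3 to 0.20 without KO replicate 1. Of 16 granulocyte progenitor genes 0 passed, with a median of 0.05. Elane, neutrophil elastase, lay at 4.71 log2 CPM in WT replicate 3 and at -1.48 to 0.24 in the other 6 libraries. Of 25 STAT feedback genes 0 passed and 16 were positive, with a median of 0.04. Among them 3 were higher in KO and 3 lower by unadjusted p under 0.05, beside 1.73% and 2.03% of all genes tested. The groups did not overlap for 1 higher and 1 lower, beside 2.42% and 2.53%. The cytokine inhibitor Socs3, named after its values were seen, lay at 2.12, 2.15 and 1.43 in KO and at 0.67, 1.25, 0.71 and 1.75 in WT (0.81 ± 0.24). Bcl3, a member with a negative sign, was at -0.88, and -0.34 without KO replicate 1.

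Besides Cd53, 15 genes of smallest p were taken, among genes whose groups did not overlap and whose higher group had a mean of at least 3 log2 CPM. They were chosen by this contrast, so their saline values are a description. The 8 higher in KO are the lymphocyte activation antigen Cd69 (0.97 ± 0.22), the lipoprotein receptor Vldlr (0.54 ± 0.13), the neurofilament gene Nefh (0.91 ± 0.23), the ribosome assembly factor Pes1 (0.62 ± 0.17), the erythroid and megakaryocyte factor Gata1 (0.95 ± 0.26), the heat shock cognate chaperone Hspa8 (1.09 ± 0.30), the vesicle cargo receptor Tmed10 (0.41 ± 0.11) and the adaptor Sla2 (0.61 ± 0.18). Those lower in KO are the phosphatase Ubash3b (-1.23 ± 0.28), the ubiquitin ligase adaptor Zer1 (-2.13 ± 0.62), the RNA-binding protein Tial1 (-0.35 ± 0.10), the Integrator-related Ints6l (-0.33 ± 0.11), the endocytic scaffold Itsn1 (-0.49 ± 0.16), the mitochondrial Fastkd1 (-0.40 ± 0.13) and the helicase Ddx11 (-0.45 ± 0.15). The lowest limma adjusted p among them was 0.406, for Ubash3b. Cd69 lay at 4.98, 4.72 and 4.36 log2 CPM in KO and at 3.40, 3.95, 3.88 and 3.64 in WT. Vldlr was tight in WT, at 3.52 to 3.64, and spread in KO, at 4.41, 4.20 and 3.73, and Pes1 had the same form, at 6.77 to 6.91 in WT and 7.71, 7.60 and 7.03 in KO. Gata1 lay at 5.12, 4.41 and 4.81 in KO and at 4.24, 3.88, 4.30 and 2.89 in WT.

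**Figure D4:**
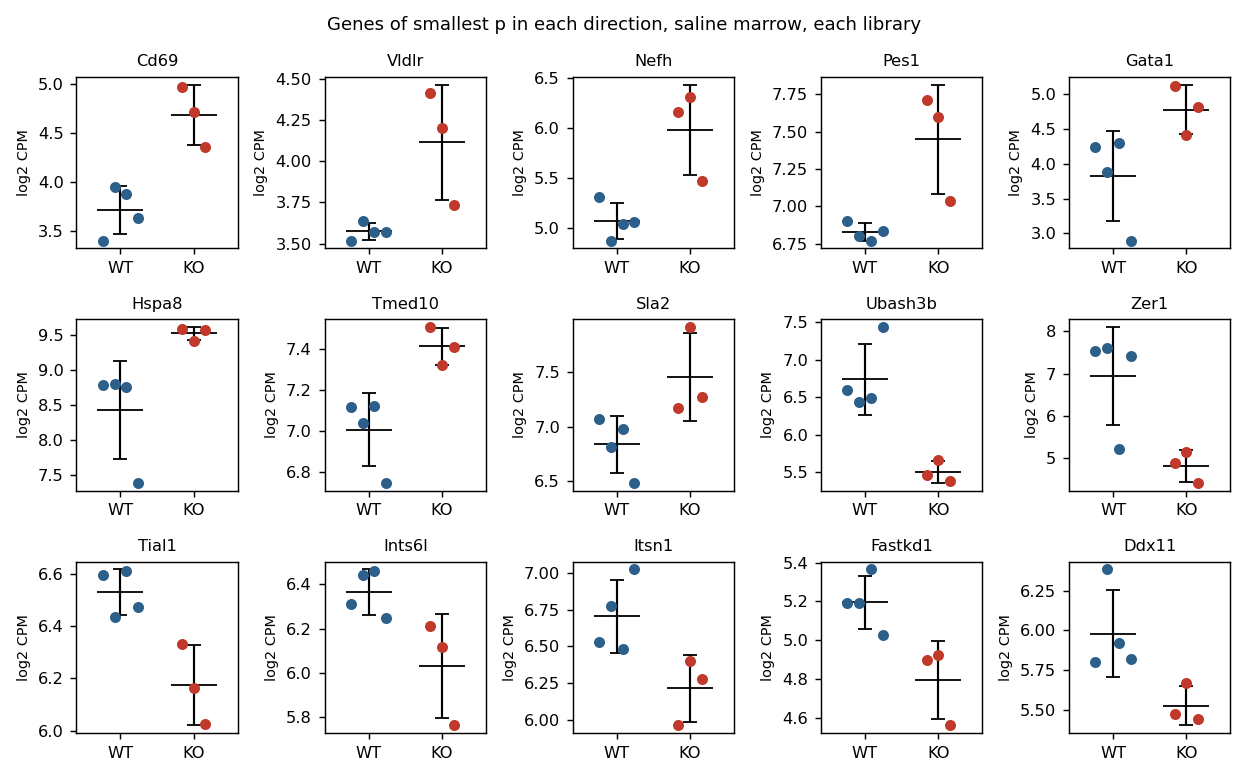
Level in log2 CPM (vertical axes, each with its own range) of the 15 genes of smallest p in each saline library, WT in blue and KO in red, with means and SD. The groups do not overlap because the genes were chosen so. Hspa8 and Ubash3b have WT replicate 4 far from the other WT libraries, and Zer1 has WT replicate 3 at 5.22.

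The G-CSF libraries entered this choice through the shared estimate of the spread, while their KO and WT means did not. About as many of the 15 genes kept their direction under G-CSF as did not. In marrow after G-CSF 7 of 15 had the sign seen after saline, and in spleen 8 of 15, with 0 past the threshold in either alone, beside 0.147% and 0.0147% of all genes. By unadjusted limma p under 0.05, 3 of 15 had the saline sign and 3 the opposite sign in marrow, where 7.21% of all genes were higher and 5.59% lower (12.8% in all). In spleen these were 2 and 2, beside 6.15% higher and 5.62% lower (11.8% in all). Averaged over marrow and spleen after G-CSF, a contrast added after seeing the data, 62 of 13571 genes passed (0.457%). Of the 15, Ubash3b and Zer1 passed there in the direction seen after saline, and Pes1 passed in the opposite direction.

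Ubash3b was lower in KO in all 3 settings. It encodes STS-1, a phosphatase that dampens signalling of tyrosine kinase receptors (chromosome 9, 41010760 to 41161692). After saline it lay at 5.46, 5.67 and 5.39 log2 CPM in KO and at 6.59, 6.44, 6.48 and 7.43 in WT. In marrow after G-CSF it lay at 5.04 to 5.72 in KO and 6.18 to 6.92 in WT, without overlap, and in spleen at 4.78 to 5.27 in KO and at 6.58, 6.41, 5.26 and 6.81 in WT, where 1 WT library lay among the KO libraries. The log2 fold change was -1.17 ± 0.28 in G-CSF marrow and -1.14 ± 0.26 in spleen (limma adjusted p = 0.0767 and 0.121). Averaged over both it was -1.15 ± 0.19 (adjusted p = 0.0052), and it passed in 15 of 15 omissions of 1 library, at adjusted p of 9.12e-05 to 0.0286. Treating marrow and spleen libraries of the same genotype and number as 1 animal, which the labels do not state, gave adjusted p = 0.00720.

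Zer1 fell into high and low libraries within WT. It encodes a substrate adaptor of a CUL2 ubiquitin ligase (chromosome 2, 30097283 to 30126287). After saline WT replicates 1, 2 and 4 lay at 7.55, 7.60 and 7.42 log2 CPM, while WT replicate 3, at 5.22, was close to the KO libraries at 4.88, 5.15 and 4.42. In spleen after G-CSF, WT replicates 1 and 2 lay at 8.14 and 7.92 and replicates 3 and 4 at 4.90 and 5.04, near the KO libraries at 4.97 to 5.30. All 11 KO libraries of the series lay between 4.42 and 5.30. The average over the G-CSF settings was -1.97 ± 0.42 (limma adjusted p = 0.0283). The call held in 7 of 15 omissions of 1 library and reached adjusted p = 0.104 without WT G-CSF marrow replicate 3.

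Hspa8 and Ubash3b lie 206 kilobases apart on chromosome 9, which was noticed after their values were seen. Hspa8 (40801276 to 40805202) lay at 9.59, 9.42 and 9.57 log2 CPM in KO and at 8.79, 8.80, 8.75 and 7.39 in WT. The WT library lowest for Hspa8, replicate 4, was the highest for Ubash3b. The same held in marrow after G-CSF, where WT replicate 3 had Hspa8 at 7.69 and Ubash3b at 6.92, the lowest and the highest of its group. In spleen the WT library with Ubash3b at the KO level, replicate 3, had the highest Hspa8 of its group. Hspa8 was at 1.11 ± 0.30 in G-CSF marrow and 0.26 ± 0.28 in spleen. Of the other 6 tested genes from 1 megabase before Hspa8 to 1 megabase after Ubash3b, 1 did not overlap after saline, the sorting receptor Sorl1, at 3.64 to 3.99 in KO and 4.14 to 4.43 in WT (-0.45 ± 0.16).

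**Figure D5:**
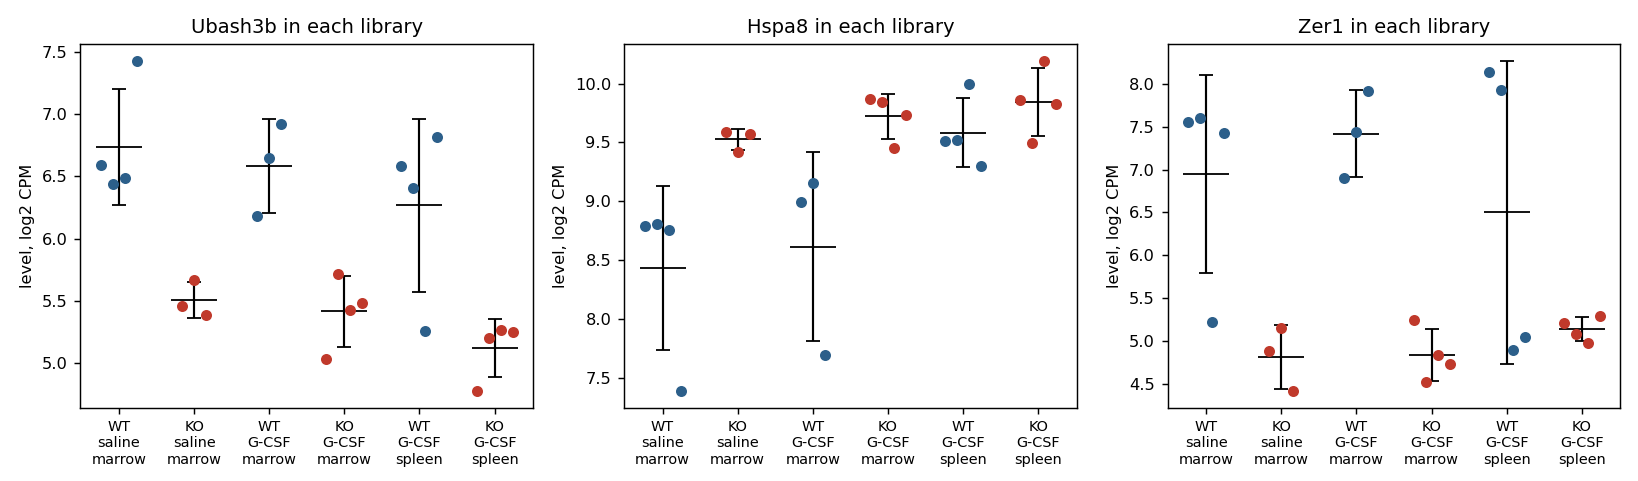
Levels of Ubash3b, Hspa8 and Zer1 in log2 CPM (vertical axes, each with its own range) in each of the 22 libraries by group, WT in blue and KO in red, with means and SD. Zer1 in WT spleen spreads from 4.90 to 8.14, against 4.97 to 5.30 in KO, while Hspa8 in spleen overlaps between the genotypes.

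Pes1 and Nefh, which lie on chromosome 11, were above WT after saline and below it after G-CSF. Pes1 had log2 fold changes of -0.49 ± 0.17 in marrow and -0.65 ± 0.15 in spleen after G-CSF, with an average of -0.57 ± 0.11 (limma adjusted p = 0.0187), which was lost in 2 of 15 omissions, those of KO G-CSF spleen replicate 3 and of WT G-CSF marrow replicate 2, with adjusted p = 0.0678 in the latter. Nefh had -0.60 ± 0.23 and -0.55 ± 0.21. The difference of the KO effect between saline and G-CSF marrow was 1.11 ± 0.24 for Pes1 and 1.51 ± 0.32 for Nefh (limma adjusted p = 0.259 for each), and over all genes 0 passed in that test, with 970 at an unadjusted p under 0.05 (7.15%). Hspa8 had a G-CSF average of 0.68 ± 0.20 (limma adjusted p = 0.162), and the other 10 genes lay between -0.17 and 0.30 with 0 past the threshold.

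Some genes with few reads passed when 1 library was left out. Without KO replicate 2, Cd53 and 5 others passed, all lower in KO: Gprin3 with 0, 8 and 1 reads in KO and 16 to 47 in WT, Nmur1 with 0, 20 and 0 against 6 to 28, the imprinted non-coding gene Mirg with 1, 9 and 6 against 15 to 51, Dtx4 with 0, 90 and 12 against 35 to 152, and the predicted gene Gm15186 with 50, 163 and 29 against 112 to 199. KO replicate 2 held the most reads of the KO libraries for each of these 5. Without WT replicate 2 the interleukin receptor chain Il13ra1 passed, with 25, 12 and 15 reads in KO and 2, 13, 0 and 2 in WT. Without WT replicate 4 the keratin Krt87 passed, with 0 reads in the 3 KO libraries and 21, 5, 11 and 0 in WT. Vldlr passed without KO replicate 3, its lowest KO library (adjusted p = 0.0227).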

How the data were processed

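RNA-seq of sorted HSCs was compared between Cd53 KO and WT mice. The submitters' processing notes name mm10, edgeR, limma, STAR 2.5.1a, Salmon 0.8.2, bcl2fastq and featureCounts 1.4.6-p5 of Subread, in roles not given in the sources used here. The authors deposited log2 CPM per gene and library, and every value equals log2 of a whole read number plus 0.5, scaled to the effective library size, within 0.05 reads. The deposited table also holds the authors' own p-values and their signed fold change, a score that was not used. Of 13645 lines, 51 repeats were dropped, leaving 13594 genes. Genes above 1 CPM in at least 3 libraries were kept, which left 13571.

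A limma trend model (limma 3.58.1, statmod 1.5.0, R 4.3.3) was fitted to the deposited log2 values of all 22 libraries in 6 groups, with 16 residual degrees of freedom and Benjamini-Hochberg adjustment over all genes. It was also run on simulated reads with planted changes, and the outcome of that run is not given here. Summaries, the permutation test and plots used Python 3.11.15, pandas 2.3.3, NumPy 2.4.6, SciPy 1.17.1 and matplotlib 3.10.9. Promoter sequences and positions are those of RefSeq. Reads were not counted by molecule, so precision is that of the spread between libraries, with a median SE of 0.192 on the log2 scale.

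The members and gene lists were chosen with earlier results of these data known. Genes named are Cd53, the gate genes, up to 8 genes of smallest p in each direction, up to 4 members of smallest p and the 2 of highest level in each list, and every gene called when a library was left out. Ubash3b, Zer1, Hspa8, Pes1 and the average over both G-CSF settings were followed up after their values were seen. Alternatives were other filters, scalings and models, a replicate block, and leaving out each library. The labels do not state whether replicate numbers pair KO and WT libraries. Deviations of same-numbered libraries correlated across genes at 0.028, 0.052 and -0.013, which cannot show that they were not paired. G-CSF marrow and spleen libraries of 1 number may come from 1 animal, which the labels do not state.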

Additional observations from a re-analysis of the deposited data

Results flagged for a closer look

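In the 4 WT saline libraries, 121 values were tested by Dixon's criterion (the gap to the nearest library over the range). In 11 of them 1 library lay far from the others. The criterion flags about 1 in 20 of independent, unselected values. The values tested include genes chosen by the saline contrast and lists that share members, so that rate does not apply to them. WT replicate 4 was lowest for Hspa8, at 7.39 log2 CPM against 8.75 to 8.80 in the others, and highest for Ubash3b, at 7.43 against 6.44 to 6.59. The same library was highest for Cd81, at 10.31 against 9.74 to 9.78. WT replicate 3 was lowest for Zer1, at 5.22 against 7.42 or more in the others. It also had the highest mean of the neutrophil markers, at 1.44 log2 CPM, and the lowest mean of the stromal and bone markers, at 1.75. WT replicate 1 was lowest for Tspan17, at -2.17, for Hoxa9, at 6.26, and for Osm, at 1.94. It was highest for Top2a, at 8.79, and lowest for the mean of the HSC transcription factors, at 5.83. WT replicate 2 stood apart in 0 of these values.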

How the results depend on the processing

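Of 17 alternatives, each kept Cd53 past the threshold, with a log2 fold change of -2.90 under the replicate block and -3.11 to -2.32 with 1 library left out. The number of genes past the threshold was 1 under every other model, filter and scaling and 3 under the replicate block, of which 1 was higher (Bcas1) and 2 lower (Cd53 and Krt87). With 1 library left out it ran from 1 to 6, with 0 to 1 higher and 1 to 6 lower. It was 6 without KO replicate 2, and 2 without KO replicate 3, WT replicate 2 or WT replicate 4. The labels do not state that replicate numbers pair these libraries, so the block is given as a value only. As WT replicate 4 has no KO library of its number, the block gives the fold change found without WT replicate 4. The test of the KO effect between saline and G-CSF marrow called 0 genes, and 0 to 7 with 1 library left out (7 without saline KO replicate 2, 3 without saline KO replicate 3, and 1 without saline WT replicate 2 or G-CSF WT replicate 2). Of 1404 values of 83 other single genes, 1375 kept direction and side, 10 newly passed and 19 turned sign, in 7 genes near 0. Kit turned to -0.0283 when scaled to listed reads and -0.0711 under the replicate block, and ran from -0.1483 to 0.1674 with 1 library left out. Cd48 turned to -0.0372 under the block and ran from -0.0754 to 0.4869. Cd81 turned to 0.0445 with sample weights, 0.0147 with the median gene aligned and 0.1153 under the block, and ran from -0.0751 to 0.1153. Tspan32 turned to -0.0165 under the block and ran from -0.0165 to 0.2805. With 1 library left out Ptprc ran from -0.0116 to 0.1586, Itga4 from -0.1800 to 0.0258 and Top2a from -0.1950 to 0.0464. The turns under the block are thus those found without WT replicate 4, and the causes were otherwise not tested. The 1 measured eosinophil marker was not above 4 CPM in at least 3 libraries, so its list gave no value under that filter. Genes with few reads and differences under the intervals given are beyond the reach of 3 against 4 libraries.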

Other observations

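Slc15a2, a peptide transporter, and Gdpd3, a lipid phosphodiesterase, fell into libraries of high and of low level, Slc15a2 among WT and Gdpd3 in both genotypes. They were found, after the values were seen, by a gap of at least 3 log2 units between saline libraries with at least 2 on each side and 4 log2 CPM above it. Slc15a2 lay at 4.50, 4.93 and 5.68 log2 CPM in the KO saline libraries and at -4.29, -3.68, 4.88 and 4.42 in WT. With G-CSF its WT libraries lay at -3.67 to 4.37 in marrow and at -2.57, -2.26, 4.31 and 3.67 in spleen, while its KO libraries lay at 2.99 to 5.39 in marrow and at 0.81 to 5.21 in spleen. Gdpd3 lay at -1.07, 5.40 and -2.56 in KO saline libraries and at 5.80, 5.55, -1.39 and 5.15 in WT. WT replicate 3, low for Gdpd3 and for Zer1, was among the WT libraries with Slc15a2 signal.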
